A study of Homo sapiens with 12 samples.

Results

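The baseline transcriptome of HuH-7 cells was described from the 6 control arrays among the 12 arrays of the series. HuH-7 is an established human hepatoma line, and all cultures come from this 1 line. The 6 arrays are those titled as mimic control or inhibitor control, 3 of each, and no array of cells that received the miR1908-5p mimic or the miR1908-5p hairpin inhibitor was used. The control cells were grown in low-glucose DMEM with serum and transfected for 72 h by means of Lipofectamine RNAiMAX, at 9 nM per the labels (the methods give a slightly higher concentration), with a miRIDIAN mimic transfection control or a miRIDIAN hairpin inhibitor transfection control, both coupled to the dye Dy547. The controls are therefore transfected cells and not untreated ones. The cultures were set up on 3 distinct occasions, numbered 1 to 3, so a mimic control and an inhibitor control array share each occasion.

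Hepatocytes secrete most plasma proteins, package lipids into lipoproteins, detoxify drugs and ammonia, and keep blood glucose within limits. The fetal liver already makes many of these proteins, together with alpha-fetoprotein and other products that are silenced after birth. Hepatoma cells often keep part of the secretory programme, return to fetal products and divide continuously, while many enzymes of the mature hepatocyte are reduced. The question for the control arrays was which of these programmes the line shows before any change in miR1908-5p.

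The study concerns a microRNA whose gene, MIR1908, lies in an intron of FADS1. The mature strand is shown because it names the experiment, with its seed (bases 2 to 8) in capitals, as given by RefSeq (GRCh38.p14, chr11:61815209-61815229, minus strand).
hsa-miR-1908-5p: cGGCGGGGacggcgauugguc

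Each array gave 1 normalized log2 value for each of 53617 probe sets. Platform annotation named 16098 of these, and they stood for 14884 genes, while 37519 probe sets (70.0%) had no name. For the 779 genes with several probe sets, the one with the highest mean was taken. Genes were ranked by their mean over the 6 arrays and placed in 3 bands. The floor reference was a list of 29 genes of other organs, such as lung surfactant proteins, digestive enzymes of the pancreas and skin keratins, which a liver cell has little use for. Their median was 4.83, and the 90th percentile of their means, 5.74, was the floor limit. The bright limit of 8.46 marked the top 10% of genes. By these limits 1489 genes (10.0%) were bright, 6377 (42.8%) middling and 7018 (47.2%) at the floor, so that 7866 (52.8%) were above the floor. The median of all named genes was 5.87. A rank states how bright a probe set is, which depends on its own probes as well as on the transcript, so the order of genes is not an order of transcript abundance. In total RNA from a culture, fewer cells making a transcript and less of it per cell cannot be told apart.

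The limits cut through a continuous distribution. There were 667 genes within 0.1 of the floor limit and 289 within 0.1 of the bright limit. The nearest genes below the floor limit were AQP2 and CENPBD2P at 5.74 and 5.73, and the nearest above it were SPRYD3 and GEMIN8, both at 5.74. UCA1 and DERA lay just under the bright limit at 8.45, and CHD2 and ENAH just over it at 8.46. On single arrays 6865 genes were above the floor limit on all 6 and 5971 at or below it on all 6, together 86.2% of the named genes. Medians of single arrays, taken over all probe sets, were 5.00 to 5.10, and Pearson's r across probe sets was 0.966 to 0.982 for every pair of control arrays. The values were spread slightly less on mimic control replicate 3 (an SD of 1.98 over probe sets) than on the remaining 5 control arrays (2.02 to 2.06). That array also had the fewest bright genes, 1356 against 1433 to 1633.

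**Figure D1:**
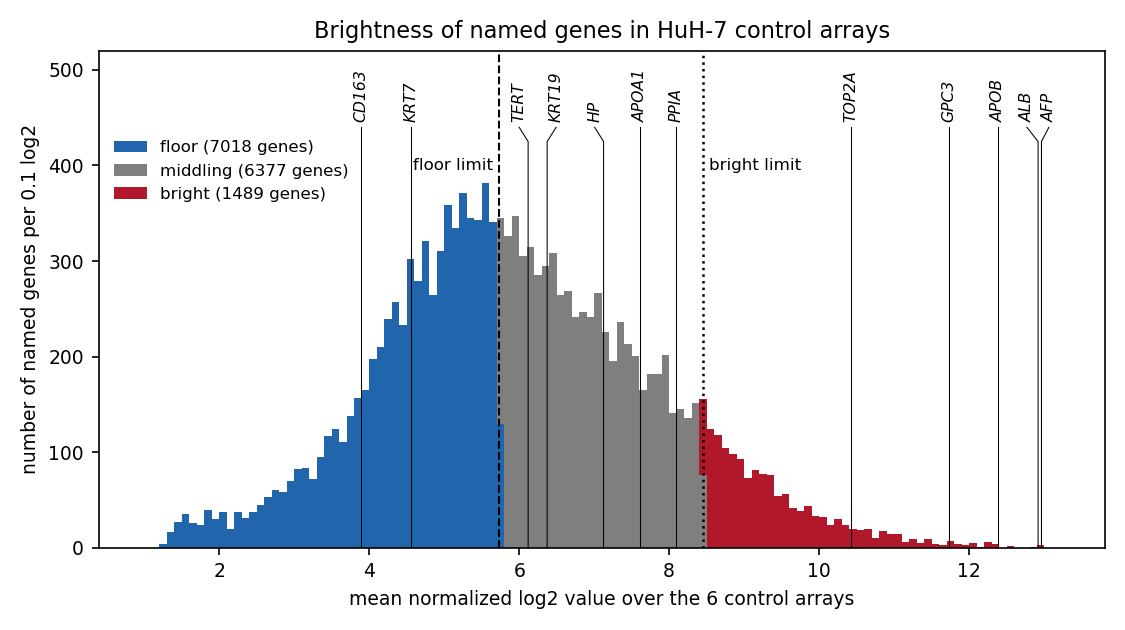
Histogram of the 14884 named genes by mean normalized log2 value over the 6 control arrays (x axis), with the number of genes per 0.1 log2 (y axis), coloured by band. The dashed line is the floor limit of 5.74 and the dotted line the bright limit of 8.46. AFP and ALB stand at the far right, near 13, and KRT7 and CD163 within the floor.

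The 4 brightest named genes all encode proteins that the liver exports. Of the 20 brightest, 7 belonged to the hepatocyte, plasma protein, lipoprotein, coagulation or fetal liver lists. ITIH2, a heavy chain of the inter-alpha-trypsin inhibitors that stabilise hyaluronan, stood first at 13 ± 0.06 (SD, n = 6). It read 12.93, 13.01 and 12.99 on the mimic control arrays and 13.06, 12.93 and 13.07 on the inhibitor control arrays, and the arrays of both controls overlapped. AFP, the fetal plasma carrier and a serum marker of liver cancer, followed at 12.97 ± 0.16 (SD, n = 6), and ALB, the adult carrier, at 12.92 ± 0.06 (SD, n = 6). FN1, which encodes fibronectin of plasma and matrix, was at 12.83. The list went on with APOB and APOA2, the structural proteins of very low density and high density lipoproteins, at 12.39 and 12.36. The iron carrier TF was at 12.22 and the fibrinogen chain FGA at 12.08.

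The other bright leaders belonged to translation, folding and RNA handling. EEF2, the elongation factor that moves the ribosome along the message, reached 12.51, and the ribosomal protein genes RPL41, RPL12 and RPS15 were also among the 20. CALR, a chaperone of the endoplasmic reticulum, PTBP1, a splicing regulator, SCD, the desaturase that makes monounsaturated fatty acids, and TM4SF1, a membrane protein raised in many carcinomas, were the remaining coding genes. The non-coding RNAs RMRP, the RNA of RNase MRP, and MALAT1 stood at 12.25 and 12.08. HNRNPA1P10 and ANXA2P2 are pseudogenes nearly identical in sequence to HNRNPA1 and ANXA2, so their signals of 12.33 and 12.19 may come in part from those genes and are uncertain.

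AFP and ALB lie side by side on chromosome 4 and are the classical fetal and adult pair. AFP read 13.07, 13.11 and 12.90 on the mimic control arrays and 13.06, 12.97 and 12.69 on the inhibitor control arrays. ALB read 12.97, 12.99 and 12.86 on the mimic control arrays and 12.97, 12.89 and 12.84 on the inhibitor control arrays. Both genes were lowest in occasion 3 within each control, and their values overlapped, so these arrays set no order between them even before the probe effect. The adjacent family member AFM (afamin, a vitamin E carrier) was far dimmer at 5.96 ± 1.00 (SD, n = 6), with 7.01, 6.01 and 5.10 on the mimic control arrays and 7.18, 5.74 and 4.69 on the inhibitor control arrays. It was at the floor on both arrays of occasion 3.

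Hepatocyte markers were mostly bright. Of the 18 named hepatocyte markers among 22 listed, 14 (77.8%) were bright, 4 were middling and none was at the floor, set beside 10.0% bright and 47.2% at the floor over all named genes. The list's median was 11.54, and the median on single arrays lay between 11.39 and 11.66. Besides ALB, APOB, APOA2, TF and FGA, the bright members included the fibrinogen chains FGB at 11.89 and FGG at 11.12, the thyroxine and retinol carrier TTR at 11.88, AMBP, the precursor of bikunin, at 11.68, the adhesion protein VTN at 11.67, fetuin-A (AHSG) at 11.42, APOH at 10.93 and APOC3 at 10.66. ASGR2, a subunit of the receptor that clears desialylated glycoproteins, was bright at 9.40, while its partner ASGR1 was middling at 7.38.

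The middling members included abundant plasma proteins of the adult liver. APOA1, the main protein of high density lipoprotein, averaged 7.61 ± 0.37 (SD, n = 6), with 7.91, 7.71 and 7.0 on the mimic control arrays and 7.65, 8.0 and 7.39 on the inhibitor control arrays. HP, haptoglobin, which binds free hemoglobin, averaged 7.12 ± 0.99 (SD, n = 6), with 7.73, 8.33 and 6.20 on the mimic control arrays and 7.41, 7.40 and 5.67 on the inhibitor control arrays. Both genes were lowest in occasion 3 within each control, and HP lay at the floor on inhibitor control replicate 3. HPX, the heme carrier hemopexin, was at 7.08.

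**Figure D2:**
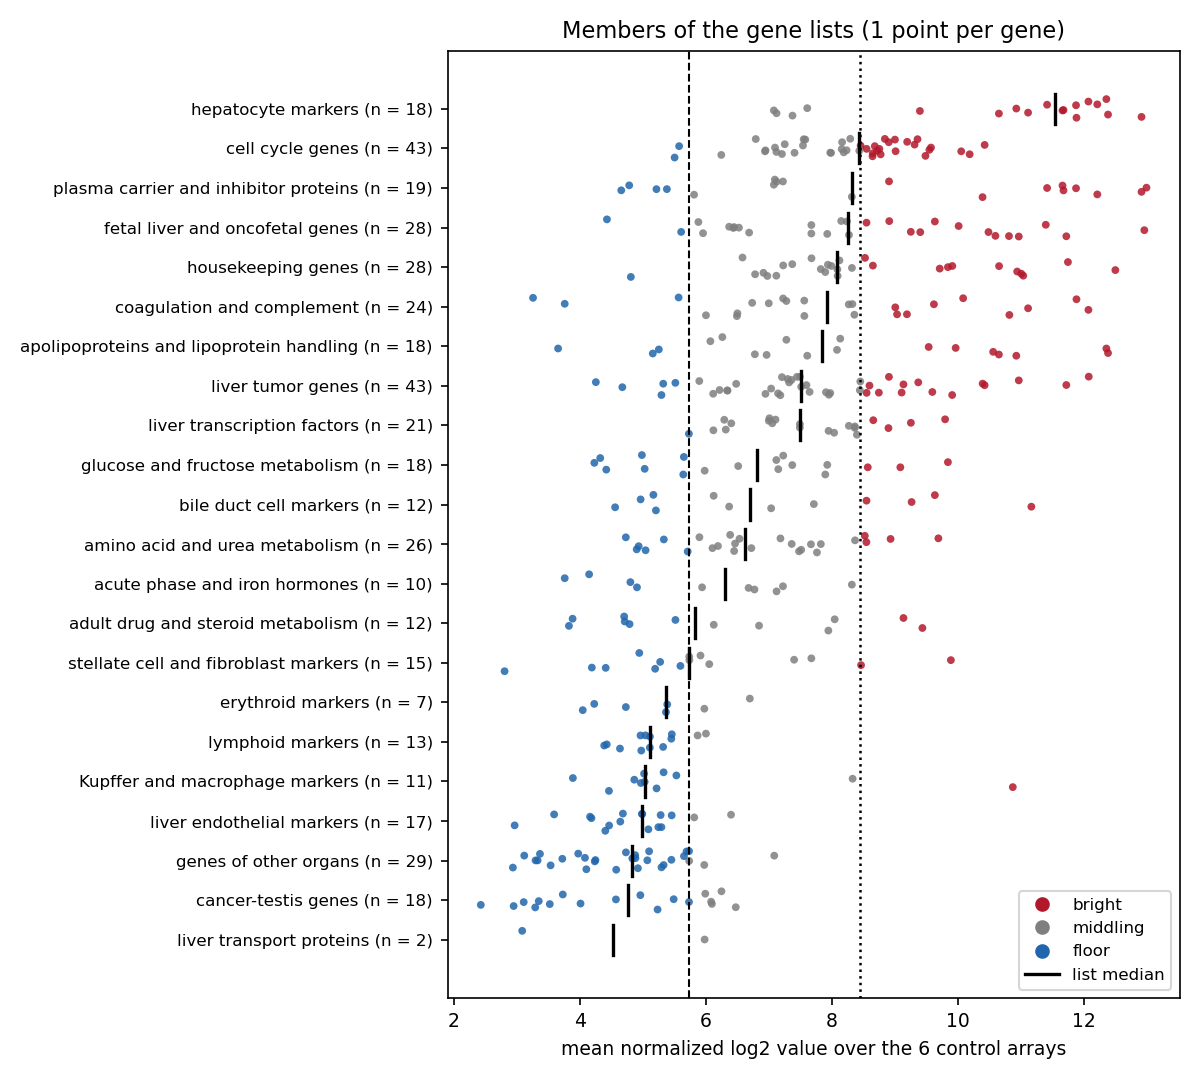
Mean normalized log2 value over the 6 control arrays (x axis) of each named member of 22 gene lists, 1 point per gene, with lists ordered by their median (black bar). The dashed line is the floor limit of 5.74 and the dotted line the bright limit of 8.46. Hepatocyte markers have the highest median, 11.54, and marker lists of endothelial, lymphoid and macrophage cells lie mostly below the dashed line.

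Among 19 named plasma carrier and inhibitor proteins, 9 (47.4%, against 10.0% of all named genes) were bright, 6 middling and 4 at the floor. Beyond those given, A2M, a broad protease trap, was bright at 10.40 and CP, the copper-carrying ceruloplasmin, at 8.91. The family of inter-alpha-trypsin inhibitor heavy chains was split. ITIH2 was the brightest named gene, while ITIH1 was at 5.22 and ITIH3 at 4.66, both at the floor. FETUB and HRG, further secreted products of the adult liver, were at the floor too, at 5.38 and 4.79.

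Of 24 named coagulation and complement genes, 9 (37.5%, against 10.0% of all named genes) were bright, 12 middling and 3 at the floor. Their median was 7.92. The bright ones comprised the 3 fibrinogen chains, complement C3 at 10.82 and C5 at 10.09, the anticoagulants PROS1 at 9.62 and PROC at 9.01, the complement inhibitor CFI at 9.20 and prothrombin (F2) at 9.04. The factors of the coagulation cascade other than prothrombin were less bright. F7 was at 7.28, F12 at 7.0, F10 at 6.74 and F11 at 6.50, and plasminogen (PLG) stood at 7.57. F9, the gene affected in hemophilia B, was at 3.26 and read between 2.90 and 3.69 over the 6 arrays. C9, the pore-forming member of the terminal complement complex, was at 3.76, so that C5 was bright, C6 at 6.50 and C7 at 6.0 were middling, and C9 was at the floor.

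Of 18 named lipoprotein and lipoprotein handling genes, 7 (38.9%, against 10.0% of all named genes) were bright, 8 middling and 3 at the floor. MTTP, which loads lipid onto APOB, was bright at 10.56, as were the endocytic receptor LRP1 at 9.97 and the phospholipid transfer protein PLTP at 9.54. APOC1 and APOA4 were middling at 8.14 and 8.09, followed by APOM at 7.28, the cholesterol esterifying enzyme LCAT at 6.97, APOE at 6.78 and APOA5 at 6.26. APOF and APOD were at the floor, as was LPL, the lipase of muscle and fat capillaries, at 3.66.

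The acute phase list, of genes that hepatocytes raise in inflammation, was the least bright of the secretory lists. None of its 10 named members was bright, 6 were middling and 4 (40.0%) at the floor. Of all named genes 10.0% were bright and 47.2% at the floor, so this small list lay near those shares. The fibrinogen chains, C3 and CP, all bright, were counted in other lists. ORM2 stood nearest the bright limit at 8.32 and ORM1 was at 7.23, but the 2 orosomucoid genes are near copies and their signals are uncertain. HAMP, which encodes the iron hormone hepcidin, was middling at 6.68 ± 0.16 (SD, n = 6). It read 6.43, 6.63 and 6.59 on the mimic control arrays and 6.88, 6.80 and 6.76 on the inhibitor control arrays, so the mimic control values were all below the inhibitor control values, as was so for 8.63% of the genes above the floor. SAA1, one of the strongest responders to infection in liver, was at the floor at 4.15, as were LBP at 4.91 and CD14 at 4.80, both of which handle bacterial lipopolysaccharide.

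Enzymes of the mature hepatocyte were bright in a smaller share than the hepatocyte markers. The bright shares of the drug, amino acid and glucose lists were still above that of all named genes. Of all named genes 10.0% were bright and 47.2% at the floor, so these counts do not show a list-wide loss. In the drug and steroid metabolism list only 12 of 55 genes had a name, and of these 2 (16.7%) were bright, 4 middling and 6 at the floor. ALDH2, which oxidises acetaldehyde, was bright at 9.14. The glutathione transferase genes GSTA2 and GSTA1 averaged 9.44 and 8.05, but they are near copies whose probes may share signal. CES1, an abundant carboxylesterase of adult liver, was at 6.13. BAAT, which conjugates bile acids, was at 5.52, NAT2, the drug acetyltransferase, at 4.70, HSD11B1, which activates cortisol, at 3.89, and AOX1 at 3.83, all at the floor.

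Of 26 named genes of amino acid and urea metabolism, 4 (15.4%) were bright, 16 middling and 6 at the floor. The bright genes were the glycine cleavage enzyme GLDC at 9.69, tyrosine aminotransferase TAT at 8.94, the lysine-degrading AASS at 8.55 and the urea cycle enzyme ASS1 at 8.53. The other urea cycle genes with a name were middling, with ASL at 7.67, NAGS at 7.48 and OTC at 6.39. GLUL, glutamine synthetase of the pericentral hepatocytes, was at 7.52. The methyl-handling enzyme GNMT, frequently lost in liver cancer, was at the floor at 4.73, together with KMO, DPYS, PRODH2, UROC1 and, just under the limit, FAH at 5.71.

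Among 18 named genes of glucose and fructose metabolism, 3 (16.7%) were bright, 8 middling and 7 at the floor. The bright ones were the glycolytic enzymes GPI at 9.85 and PGAM1 at 9.09, and pyruvate carboxylase PC at 8.57. HK2, the hexokinase of fetal and tumor cells, was middling at 7.93, with HK1 at 4.42 and HK3 at 4.23 both at the floor. PCK1, the cytosolic enzyme that commits to gluconeogenesis, was at the floor at 4.99, while its mitochondrial counterpart PCK2 was at 7.23. Fructokinase (KHK) at 5.03, the liver glycogen synthase GYS2 at 5.64 and the glucokinase regulator GCKR at 5.65 were at the floor, whereas the muscle-type synthase GYS1 was at 6.52. Only 2 of 29 liver transport genes had a name, AQP3 at 5.98 and AQP9 at 3.09.

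The liver transcription factors that had a name were nearly all above the floor. Only 21 of the 39 listed had a name, so the count does not speak for the rest of the list. Of these 21, 4 were bright, 16 middling and 1, KLF15 at 5.73, lay just under the floor limit. By comparison, 10.0% of all named genes were bright and 52.8% were above the floor. CREB3L3, a membrane-bound factor of the fasting liver, was at 9.80, PROX1, needed for hepatoblast migration in mice, at 9.26, ZHX2, a repressor of AFP in mice, at 8.90 and GATA6 at 8.66. The pioneer factors FOXA2, FOXA1 and FOXA3 were at 8.40, 7.95 and 7.06, and the early hepatic factors ONECUT1 and HHEX at 8.37 and 8.04. ZBTB20, another repressor of AFP in mice, was middling at 7.11. Thus 2 genes known as AFP repressors in mice were above the floor in cells where AFP was the brightest named gene but one.

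Fetal liver and oncofetal genes formed a bright group. Of 28 named members 13 (46.4%, against 10.0% of all named genes) were bright, 13 middling and 2 at the floor. The list's median was 8.26. GPC3, a heparan sulfate proteoglycan of fetal liver and liver cancer, averaged 11.73 ± 0.26 (SD, n = 6), with 12.13, 11.85 and 11.68 on the mimic control arrays and 11.78, 11.42 and 11.49 on the inhibitor control arrays. Mimic control replicate 1 was the highest, and the controls overlapped. PEG10, an imprinted gene of retroviral origin, averaged 10.97, IGF2BP1, an RNA-binding protein of the fetus, 10.60, and LIN28B, which blocks let-7 maturation, 10.02. CD24 was at 11.40 and GSTP1, the glutathione transferase of bile ducts and fetal liver, at 10.82.

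Progenitor markers in that group were mixed, and no separate list of them was fixed. SOX9 was at 9.64, SOX4 at 9.41, PROM1 (CD133) at 9.26 and EPCAM at 8.55, all bright. SALL4 at 6.44, KRT19 at 6.37 and DLK1 at 5.88 were middling. Further members of the list were middling, among them HMGA1 at 8.28, IGF2BP2 at 8.15, IGF2BP3 at 6.53 and HMGA2 at 6.45. IGF2BP1 was thus the brightest of its 3 paralogs. The imprinted RNA gene MEG3, a neighbour of DLK1, was at the floor at 4.43, and BEX2 at 5.61. Of the keratins of simple epithelium, which pair in filaments, KRT18 was bright at 10.49 and KRT8 middling at 6.69. KRT18 has several probe sets, and by the lowest of them it averaged 7.11 and was middling too. Of all 44 named keratin genes 38 (86.4%) were at the floor.

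Of 43 named liver tumor genes 14 (32.6%, against 10.0% of all named genes) were bright, 24 middling and 5 at the floor. Besides MALAT1, GPC3 and PEG10, the liver-cancer RNA HULC was bright at 10.40, with an SD of 0.07 over the 6 arrays, as were GOLM1 at 9.91, the growth factor MDK at 9.38, and the receptors EGFR at 9.60, MET at 9.14 and FGFR4 at 8.75. FGF19, a ligand of FGFR4 that is often amplified in liver cancer, was middling at 7.30. MYC was at 7.96, VEGFA at 7.36 and TERT, the telomerase subunit, at 6.12 ± 0.18 (SD, n = 6), above the floor limit on all 6 arrays, while the telomerase RNA TERC was bright at 9.63.

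The cyclin CCND1 was bright at 8.56 and the oxidative stress regulator NFE2L2 at 8.91. TBX3 at 7.50, LGR5 at 6.48 and NKD1 at 5.90 were middling, as were TXNRD1 at 7.91, SQSTM1 at 7.32 and SRXN1 at 7.15. The genes at the floor were AXIN2 at 5.52, CDKN2A at 5.33, NOTUM at 5.30, DKK1 at 4.68 and HOTAIR at 4.26. The tumor suppressor gene RB1 was bright at 9.11. Cancer-testis genes were mostly at the floor, 13 of 18 (72.2%, against 47.2% of all named genes), and none was bright, against 10.0%. PRAME was the highest at 6.48, and the meiotic genes SYCP1 at 2.43 and SPO11 at 2.95 were the dimmest. The GAGE genes are near copies of each other, so GAGE12J at 6.10 and GAGE2A at 6.09 are uncertain.

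The housekeeping genes spread over much of the scale. Of 28 named, 11 (39.3%, against 10.0% of all named genes) were bright, 16 middling and 1 at the floor, with a median of 8.09. The bright members included the spliceosomal SNRPD3 at 11.75, the chaperone CANX at 11.04, HNRNPK at 11.01, PPIB at 10.95 and VCP at 10.66. GAPDH, the glycolytic enzyme used in many assays, was at only 7.12. It read 7.14, 7.30 and 7.19 on the mimic control arrays and 7.07, 7.03 and 7.0 on the inhibitor control arrays. The mimic control values were thus all above the inhibitor control values, as was so for 5.09% of the genes above the floor. EEF1A1, the elongation factor whose message is among the most abundant in most cells, was at 6.78 ± 0.03 (SD, n = 6) and hence in the middling band. UBB, a ubiquitin gene, was at 6.92 and RPL32 at 6.58. CFL1, the actin-severing cofilin of every cell, was at the floor at 4.81. GAPDH, EEF1A1 and CFL1 are known for abundant transcripts. A middling or floor value, also among the plasma proteins above, therefore cannot by itself be read as a small amount of transcript. The parts of the probe set and of the transcript in such a value cannot be told apart here.

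The 3 genes that the study used as references in quantitative PCR were all middling. PPIA (cyclophilin A) averaged 8.09 ± 0.19, SRP14 7.68 ± 0.10 and HPRT1 6.98 ± 0.38 (SD, n = 6 each). HPRT1 read 7.31, 7.43 and 6.55 on the mimic control arrays and 7.13, 6.93 and 6.53 on the inhibitor control arrays, so its 2 lowest values were those of occasion 3. PPIA was also lowest in occasion 3, at 7.87 on the mimic control array and 7.84 on the inhibitor control array, against 8.16 to 8.27 on the other 4. Among 52 cytosolic ribosomal protein genes 20 (38.5%) were bright, 29 middling and 3 at the floor, although most ribosomal proteins are needed in equal numbers. The genes were taken by symbol, so paralogs may be among them. Pseudogenes of ribosomal proteins are many and nearly identical, so these values are uncertain.

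Of 43 named cell cycle genes 21 (48.8%, against 10.0% of all named genes) were bright, 20 middling and 2 at the floor. TOP2A, which untangles DNA before mitosis, led at 10.43, followed by the cyclin CCNA2 at 10.19, CDK4 at 10.06, NUSAP1 at 9.58, PLK1 at 9.55 and the replication clamp PCNA at 9.49. MKI67, the marker read in pathology as Ki-67, averaged 9.32. CDK1 at 8.30, CDK2 at 8.24 and CDK6 at 7.10 were middling. CCNE1 was middling at 6.95, and E2F2 at 5.58 and CCNE2 at 5.51 were at the floor.

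Most cell cycle genes were lowest in occasion 3. Both arrays of occasion 3 read below all 4 other arrays in 38 of the 43 (88.4%), set beside 15.3% of all named genes and 22.4% of those above the floor. The opposite, both arrays of occasion 3 above the other 4, held for none of the 43 and for 9.36% of all named genes. PCNA read 10.15, 9.96 and 8.06 on the mimic control arrays and 10.25, 10.07 and 8.45 on the inhibitor control arrays. MKI67 read 9.78, 9.72 and 8.93 on the mimic control arrays and 9.77, 9.40 and 8.30 on the inhibitor control arrays. In both genes occasion 3 was the lowest within each control and did not overlap with occasions 1 and 2. The count was again 38 after quantile normalization of the 6 arrays. Among lists of more than 2 named genes this share was next highest in the liver tumor genes, 21 of 43 (48.8%). That list shares TOP2A, CCND1, AURKA, BIRC5 and CCNE1 with the cell cycle list. The share was 46.2% in amino acid and urea metabolism, 44.4% in apolipoproteins, and 42.9% in both housekeeping and fetal liver genes. It was lower in the other lists, down to 0% in erythroid markers. What differed on that occasion was not recorded in the labels and was not tested.

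**Figure D3:**
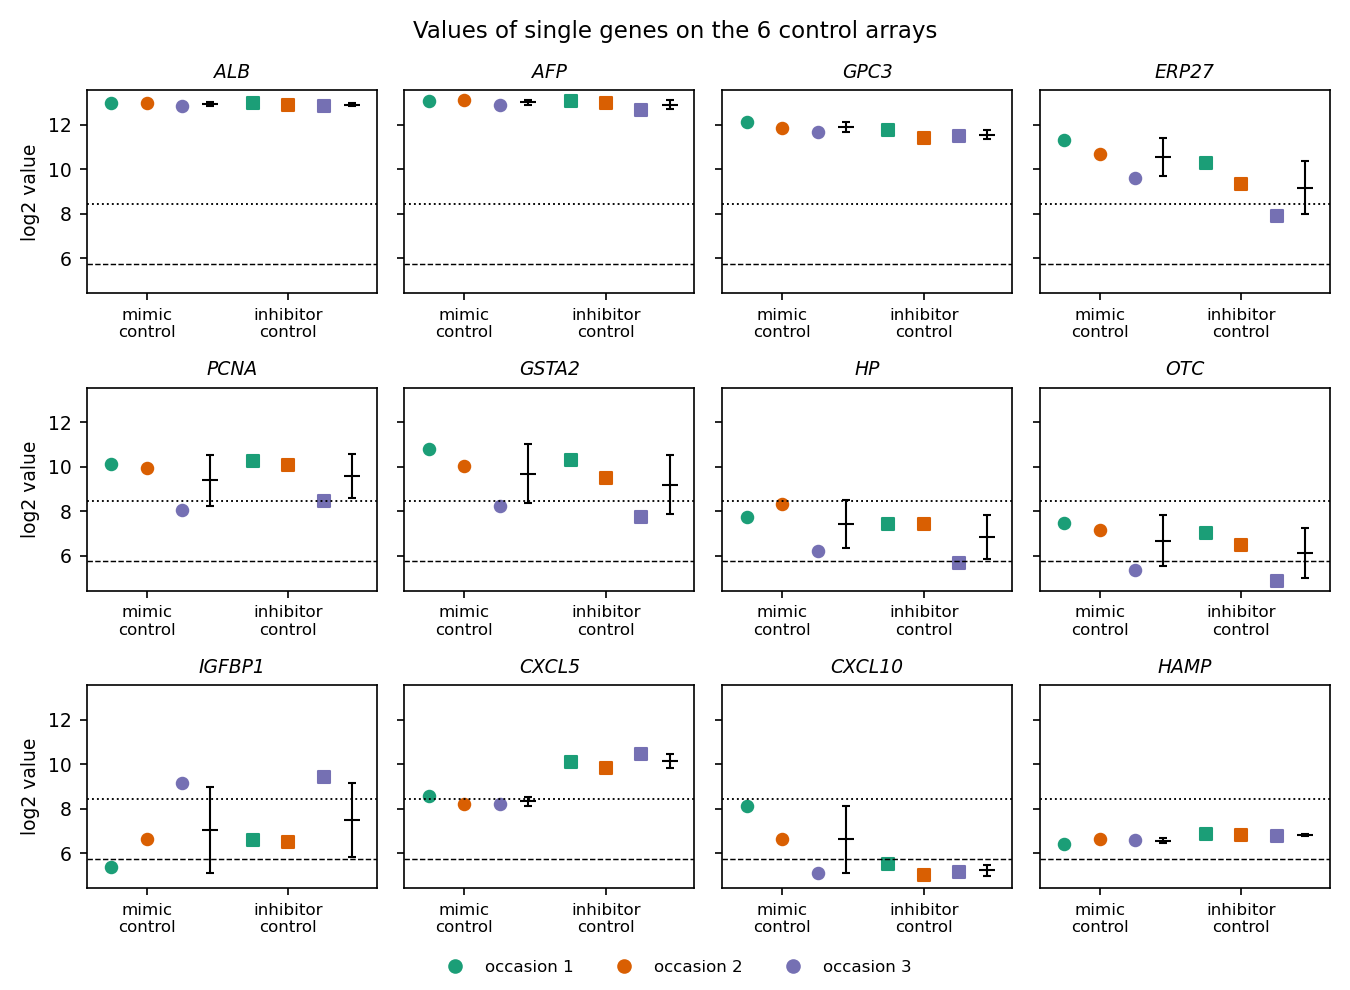
Normalized log2 value (y axis) of 12 genes on each control array, mimic control (circles) left of inhibitor control (squares), coloured by occasion, with mean ± SD (n = 3) beside each control. The dashed line is the floor limit and the dotted line the bright limit. ALB and AFP stayed near 13 on all arrays, PCNA, GSTA2, HP and OTC were lowest in occasion 3 in both controls, and IGFBP1 was highest there.

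Lists of other cell types were mainly at the floor, where 47.2% of all named genes lay. Of the named endothelial markers 15 of 17 (88.2%) were at the floor, including STAB2 at 4.41, LYVE1 at 3.59 and VWF at 4.64. The 2 above the limit were PECAM1 at 6.40 and FCN3 at 5.82. Of the Kupffer cell and macrophage markers 9 of 11 (81.8%) were at the floor, with CD163 at 3.89, TIMD4 at 4.46 and MARCO at 4.87. The exceptions were LYZ, lysozyme, bright at 10.88 and between 10.59 and 11.13 on every array, and CD68, a lysosomal glycoprotein, middling at 8.33. Both of these are also made outside macrophages. Of 13 lymphoid markers 11 (84.6%) were at the floor, down to IL7R at 4.39, and CD8A at 6.0 and NKG7 at 5.87 lay above it. Of 7 erythroid markers 5 (71.4%) were at the floor, down to AHSP at 4.05, and EPOR at 6.70 and GATA1 at 5.98 lay above it.

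Bile duct and mesenchymal markers were mixed. Of 12 named bile duct markers 4 were bright, the annexin ANXA4 at 11.17, SOX9, the trefoil peptide TFF1 at 9.27 and EPCAM, while KRT19 was middling at 6.37 and KRT7, the defining duct keratin, was at the floor at 4.56. Of 15 stellate cell and fibroblast markers 2 were bright, 6 middling and 7 at the floor. These shares were close to those of all named genes, 10.0% bright, 42.8% middling and 47.2% at the floor. The bright ones were the collagen crosslinker LOX at 9.89 and, on the limit, vimentin (VIM) at 8.47. Middling members included RELN at 7.68, FBLN5 at 7.40, DES at 5.92 and, on the floor limit, RGS5 and THY1 at 5.74. At the floor were DCN at 2.81, LRAT at 4.19, TCF21 at 4.41 and HAND2 at 4.95 among others. LUM, a small matrix proteoglycan, averaged 6.06 and crossed the floor limit, with 7.69, 6.46 and 4.62 on the mimic control arrays and 6.76, 6.0 and 4.80 on the inhibitor control arrays. Among the genes of other organs, the desmosomal cadherin DSG3 stood alone at 7.09, between 6.71 and 7.36 on the 6 arrays.

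Most genes varied little between control arrays. The median SD over the 6 arrays was 0.20 for bright genes, 0.20 for middling genes and 0.22 at the floor. Among the 7866 genes above the floor, 350 had an SD over 0.5 and 19 an SD over 1. The largest SD, 1.78, was that of USP17L15, one of a family of near-identical copies that cannot be told apart here. USP17L12 and USP17L9P carried the same 6 values, and USP17L15 ranged from 3.52 to 8.11. The long non-coding RNA LINC00965 ranged from 4.20 to 8.01.

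Of the single-copy genes, IGFBP1, a secreted binding protein that hepatocytes raise in fasting and stress, varied most. It read 5.36, 6.63 and 9.14 on the mimic control arrays and 6.58, 6.48 and 9.43 on the inhibitor control arrays, which places it at the floor on the lowest array and bright on both arrays of occasion 3. GSTA2 moved the other way, with 10.80, 10.03 and 8.22 on the mimic control arrays and 10.33, 9.51 and 7.76 on the inhibitor control arrays. GSTA1 was likewise lowest in occasion 3, with 8.84, 8.45 and 6.60 on the mimic control arrays and 9.04, 8.67 and 6.68 on the inhibitor control arrays.

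OTC, the mitochondrial enzyme that makes citrulline, read 7.49, 7.14 and 5.36 on the mimic control arrays and 7.02, 6.48 and 4.84 on the inhibitor control arrays. It was at the floor on both arrays of occasion 3 and above it on the other 4. ERP27, a chaperone of the endoplasmic reticulum abundant in pancreas, read 11.32, 10.68 and 9.63 on the mimic control arrays and 10.29, 9.32 and 7.90 on the inhibitor control arrays. SI, the sucrase of intestine, ranged from 4.34 to 7.50.

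The chemokines CXCL10 and CXCL5 varied in other patterns. CXCL10, an interferon-induced attractant of T cells, read 8.13, 6.65 and 5.10 on the mimic control arrays and 5.51, 5.03 and 5.14 on the inhibitor control arrays. Only mimic control replicates 1 and 2 were thus above the floor. CXCL5, an attractant of neutrophils, read 8.56, 8.22 and 8.22 on the mimic control arrays and 10.09, 9.85 and 10.47 on the inhibitor control arrays. Its mimic control values were all below its inhibitor control values, as was so for 8.63% of the genes above the floor. No difference between the 2 controls was tested.

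**Figure D4:**
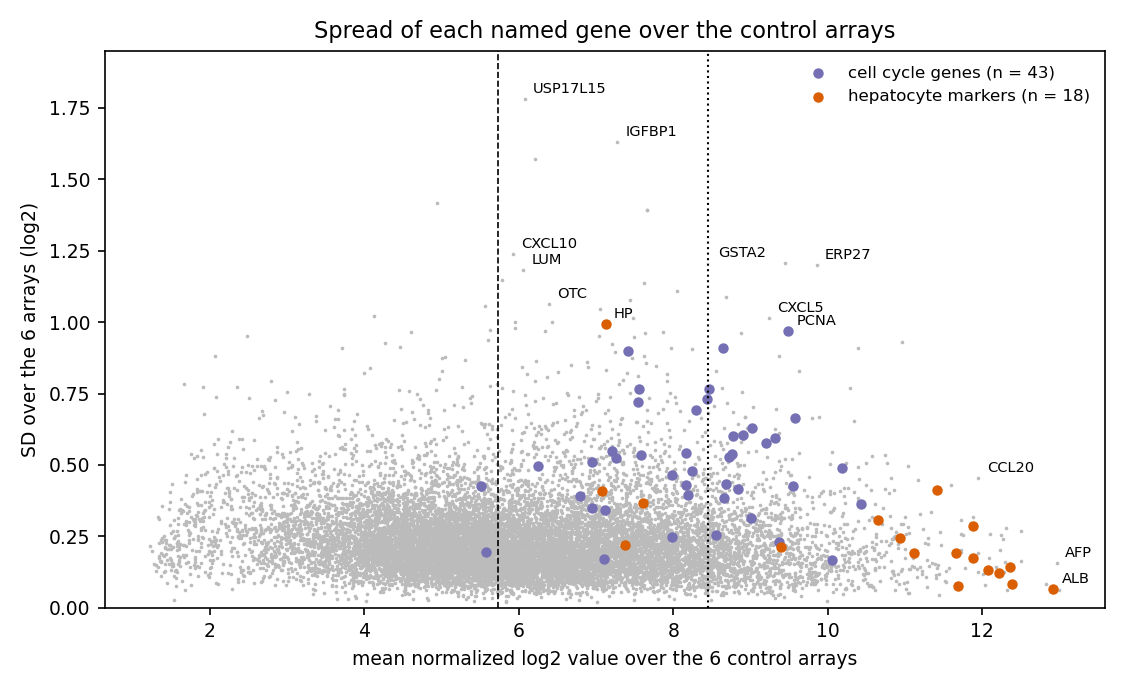
SD over the 6 control arrays (y axis, log2) against mean normalized log2 value (x axis) for the 14884 named genes, with cell cycle genes and hepatocyte markers coloured. The dashed line is the floor limit and the dotted line the bright limit. Hepatocyte markers range from ALB with an SD of 0.06 to HP with 0.99, and many cell cycle genes lie above the bulk, up to PCNA at 0.97.

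The genes around the studied microRNA were in the upper middle. FADS1, the delta-5 desaturase that hosts MIR1908, averaged 8.45 ± 0.18 and its neighbour FADS2, the delta-6 desaturase, 8.37 ± 0.25 (SD, n = 6 each), both just under the bright limit. FADS3 was at 6.34. The MIR1908 probe set averaged 6.98 ± 0.18 (SD, n = 6) and read 6.73, 7.12 and 7.12 on the mimic control arrays and 6.79, 7.10 and 7.02 on the inhibitor control arrays. Such a probe set can also take signal from the host transcript and does not measure mature hsa-miR-1908-5p. STK11, the LKB1 kinase that activates AMPK, averaged 7.42 ± 0.19 (SD, n = 6), with 7.45, 7.46 and 7.15 on the mimic control arrays and 7.27, 7.46 and 7.70 on the inhibitor control arrays, which overlapped.

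Bands differed by kind of transcript. Of 11915 protein-coding genes 12.1% were bright and 39.7% at the floor, against 1.43% and 78.5% of 1398 long non-coding RNA genes and 0.84% and 80.0% of 1072 microRNA genes. The bright long non-coding RNAs were led by MALAT1, then NORAD at 11.45 and, with HULC, included the host genes GAS5 at 8.79, SNHG8 at 9.38 and ZFAS1 at 9.35, which also carry small nucleolar RNAs. The unnamed probe sets were not all dim. Of 37519, 2143 (5.71%) exceeded the bright limit, and 44 were brighter than the brightest named gene, up to 13.82. They include whatever genes the annotation leaves unnamed, so the ranks given here are ranks among named genes.

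Promoters of the bright liver genes were read for features that the ranking did not use. RefSeq promoters (GRCh38.p14, 250 bases before and 50 after each start) matched 10749 of the 14884 genes. The CpG ratio, observed over expected, was under 0.4 in 9 of 11 hepatocyte markers with a promoter (81.8%) and 82.6% of 23 coagulation and complement genes, but in none of 27 housekeeping and none of 35 cell cycle genes. Over all genes it was under 0.4 in 5.63% of bright, 10.7% of middling and 41.9% of floor genes. Low ratios were not particular to liver lists, as they were found in 9 of 9 Kupffer cell and macrophage markers, 80.0% of 10 lymphoid markers and 59.1% of 22 genes of other organs. Among the hepatocyte, plasma protein, apolipoprotein, coagulation and acute phase lists together, 11 of 18 bright genes (61.1%) and 26 of 32 others had a low ratio. The 2 hepatocyte markers above 0.4 were ALB at 0.481 and TF at 0.999.

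The motif GTTAAT, the core of the site bound by HNF1 factors of liver and kidney, was sought on both strands in the 250 bases upstream, where its complement reads ATTAAC. It was found in 6.22% of all 27305 RefSeq promoters, 4.28% of named genes and 3.94% of bright genes. Among the same 5 lists, 6 of 18 bright genes with a promoter (33.3%) and 1 of 32 others (3.13%) held it. It was also present in 3 of 7 genes of drug and steroid metabolism (42.9%), a list of which 6 of 12 named genes were at the floor. The motif was chosen with the values in view, and a match is a description of letters and not a bound site. Windows of 30 bases around the match, with the motif in capitals, are shown for some of the bright genes. They are also shown for AFM and GSTA2, dimmer or more variable members that also hold it.
ALB (chr4:73404214-73404243, plus strand): aagatgagtctaGTTAATaatctacaatta
AFP (chr4:73436077-73436106, plus strand): aaccgctatgctGTTAATtattggcaaatg
AFM (chr4:73481596-73481625, plus strand): tttttttttctgGTTAATatttagcaagaa
FGA (chr4:154590777-154590806, minus strand): acaaagccaatgATTAACcaaacctcttgc
FGB (chr4:154562917-154562946, plus strand): caaaaattaaatATTAACtaaggaaaggta
APOH (chr17:66229447-66229476, minus strand): caccagaaaatgGTTAATgtttaagcgctt
F2 (chr11:46719167-46719196, plus strand): tgttagttcaacATTAACccagaggggtca
GSTA2 (chr6:52763638-52763667, minus strand): gaaaaggaacatATTAACcagtgtcttctg

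The first base of the motif lay 61 bases upstream of the start in ALB, 52 in FGA, 51 in FGB and 34 in F2. In APOH it lay 49 bases upstream at the nearer match and 210 at the other. CFI, a bright gene whose window is not printed, held it 248 bases upstream. The distance was 132 bases in AFP, 137 in AFM and 180 in GSTA2. GSTA1 carried the motif at the same distance of 180 bases as its copy GSTA2. AFM held the motif at nearly the same distance as AFP and yet averaged 5.96, against 12.97 for AFP, so a match did not go with a single band.

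A TATA box, sought as TATAAA on the gene's strand 45 to 15 bases upstream, was found in 2.63% of all RefSeq promoters, 1.77% of bright genes and 5.43% of genes at the floor. None of the 18 bright genes of those 5 lists held it, against 5 of their 32 others (15.6%), and 8 of 22 genes of other organs (36.4%) did. Windows are shown for AFP and AFM, which share the motif despite their different bands, and for EEF2 and PPIA, a bright and a middling housekeeping gene.
AFP (chr4:73436180-73436209, plus strand): gcctgaaaagagTATAAAagaatttcagca
AFM (chr4:73481703-73481732, plus strand): gtgaaagaatgaTATAAAaacttgattttc
EEF2 (chr19:3985476-3985505, minus strand): ccggcgtccgccTATAAAaagctgagtgtt
PPIA (chr7:44796638-44796667, plus strand): ggccgaacgtggTATAAAaggggcgggagg

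**Figure D5:**
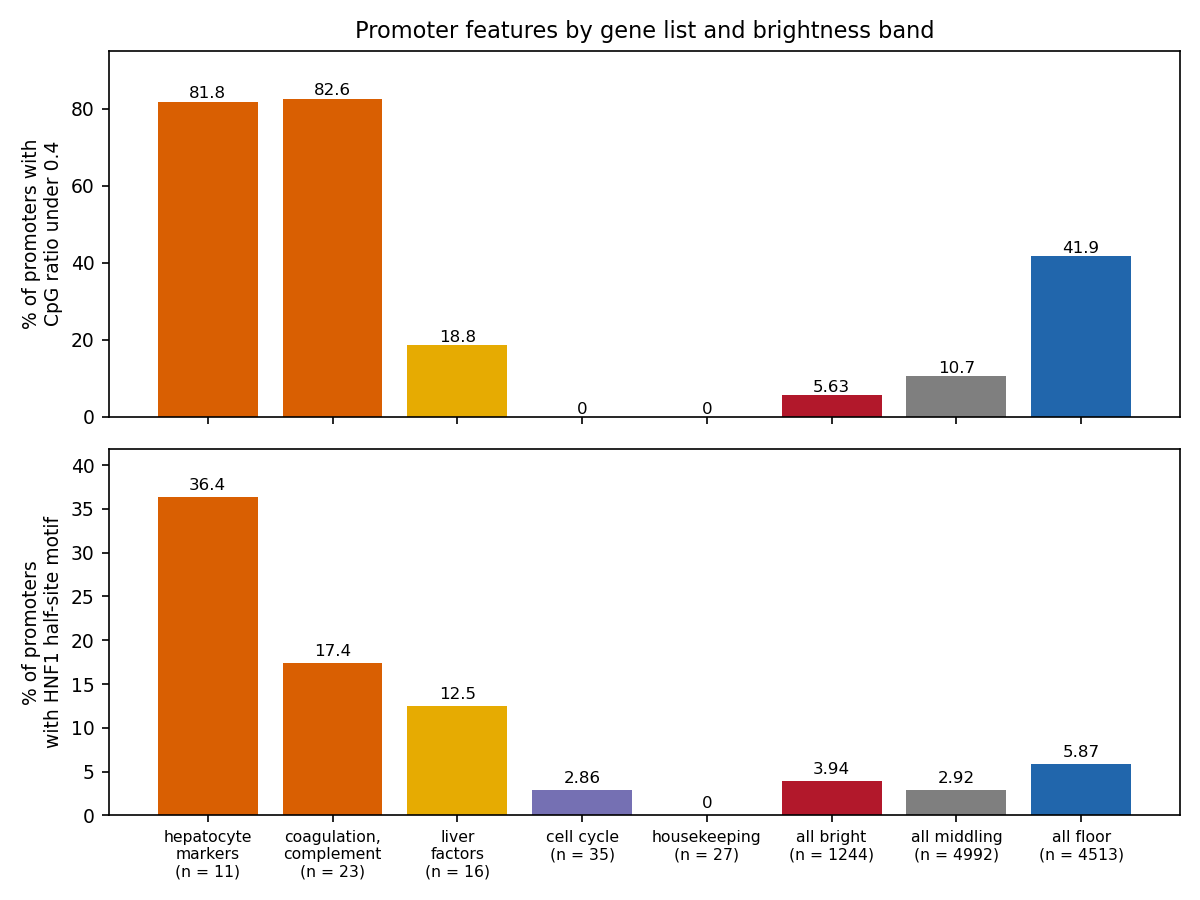
Share of RefSeq promoters (y axes, percent) with a CpG ratio under 0.4 (upper panel) and with the HNF1 core motif in the 250 bases upstream (lower panel), for 5 gene lists and for all bright, middling and floor genes, with the number of genes that have a promoter under each bar. Hepatocyte markers (81.8% and 36.4%) stand above all bright genes (5.63% and 3.94%) in both panels.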

How the data were processed

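RNA was hybridized to Affymetrix HuGene-2_0-st arrays. The log2 values were normalized and deposited by the authors, who ran Affymetrix Expression Console. The sources used here do not give its version, summarisation or normalization settings. These values were used without further scaling, so a batch or background effect left by that step remains in them. Precision is limited by the small number of arrays. The 6 arrays of the mimic and inhibitor groups were not used. Means, SDs (n = 6) and bands were computed in Python 3.11.15 with numpy 2.4.6 and pandas 2.3.3, and plots drawn in matplotlib 3.10.9. Symbols came from GEO's platform annotation, 1 per named probe set, and kinds of transcript and promoters from RefSeq through the gene ID.

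The members, lists and limits were chosen with earlier results of these data known. Genes were named from the 20 brightest, members of each list (the 5 brightest, those nearest the median and the 5 dimmest, of which not all are printed), the PCR reference genes, the 10 most variable above the floor, FADS1, FADS2, STK11 and members whose band changed under an alternative. Others, among them list members between these, MIR1908, FADS3, CXCL5, TERC and the bright host genes, were chosen after their values were seen. The floor was planned on olfactory receptors, of which 1 was named, so genes of other organs, listed as a second choice, were used instead. No hypothesis test was made. Controls and occasions were set side by side only by whether their values overlap, and single arrays by a gap criterion. Alternatives were other floor and bright limits, the median, each control alone, quantile normalization, a common median, other rules for several probe sets, and leaving out each array or occasion 3. On simulated data drawn around preset floor, middling and bright levels, 97.7% of 14884 genes fell in their true band. The share of measured genes that lie in their true band was not tested.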

Additional observations from a re-analysis of the deposited data

Results flagged for a closer look

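For 259 values (the named genes, the array medians and the array SDs), the highest or lowest of the 6 control arrays was set against the gap expected within a group of 6. A single array stood apart in 11, and chance alone gives about 1 in 20. The count is thus not above that of chance, and the values below are listed as a description only. The flagged array belonged to occasion 2 or 3, which hold most of the arrays, in all but C7, and no cause was tested.

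The secretory genes came first. TF read 11.99 on mimic control replicate 3 and 12.22 to 12.31 on the other 5 arrays. FN1 read 12.67 on inhibitor control replicate 2 and 12.82 to 12.90 elsewhere. F7 read 7.71 on inhibitor control replicate 3 and 7.08 to 7.30 elsewhere, and C7 read 6.93 on mimic control replicate 1 and 5.66 to 6.12 elsewhere. C7 was at the floor on at least 1 of those other arrays.

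Among enzymes, ASL of the urea cycle read 8.08 on inhibitor control replicate 2 and 7.56 to 7.63 elsewhere, a tight set apart from that array. HSD11B1 read 4.33 on mimic control replicate 3 and 3.68 to 3.88 elsewhere, and KHK read 4.49 on inhibitor control replicate 3 and 5.05 to 5.23 elsewhere, all within the floor. The receptor gene MET read 8.51 on inhibitor control replicate 2 and 9.13 to 9.46 elsewhere, and stayed bright. KRT8 read 6.92 on inhibitor control replicate 3 and 6.63 to 6.67 elsewhere. CDKN2A read 4.86 on inhibitor control replicate 3 and 5.35 to 5.54 elsewhere, at the floor on all 6. SYCP1, a meiotic gene, read 2.65 on inhibitor control replicate 2 and 2.33 to 2.42 elsewhere, also within the floor.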

How the results depend on the processing

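No paired analysis was possible because the ranks and bands come from no test. Of the counts recomputed under each alternative, 697 stayed within 1.5 times the reported count and 30 did not. Under the single named olfactory receptor as floor, chosen after seeing the data, 14226 genes lay above it, against 7866. With the floor at the 95th percentile 1 endothelial and 1 lymphoid marker lay above it, and at the 75th percentile 4 lymphoid and 4 erythroid markers did. With bright as the top 5% of genes the bright counts were 1 for drug, 1 for amino acid and 1 for glucose metabolism, 2 for transcription factors, 8 for tumor genes, 9 for cell cycle genes and 1 for stellate markers. With the top 20% they were 14 for coagulation and complement, 1 for acute phase, 4 for drug, 8 for amino acid and 5 for glucose metabolism, 10 for transcription factors, 20 for housekeeping genes and 2 for macrophage markers. Stellate markers had 1 bright gene, LOX, and not 2 under the median over the arrays, the inhibitor control arrays only, the lowest probe set, the mean of the probe sets and without the 2 arrays of occasion 3, and 1 to 2 when single arrays were left out. One acute phase gene, ORM2, was bright on the inhibitor control arrays only and without the 2 arrays of occasion 3, an alternative added after seeing the data, in which macrophage markers had 2 bright genes. Where a gene has several probe sets, the rule mattered. With the lowest probe set KRT18 averaged 7.11, VIM 7.30, UCA1 5.69, SCD 8.27, RPL41 6.53, CES1 5.52 and MEG3 1.34. Of 393 named list members 126 changed band under some alternative. A common median leaves every mean as it is, so it tests nothing here, and its counts are among the 697. Leaving out single arrays moved the number of genes above the floor between 7793 and 8090.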
